A study of Homo sapiens with 18 samples.

Results

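The genes described here are the phosphatases and Sprouty-family inhibitors that hold back the kinase ERK, measured by RNA-seq in OVCAR3-KRAB cells. The members were chosen by name from the count table: *DUSP4*, *DUSP5*, *DUSP6*, *DUSP7*, *DUSP9*, *SPRY1*, *SPRY2*, *SPRY4*, *SPRED1* and *SPRED2*. All 10 were found among the 28277 genes listed, and all 10 passed the filter on low counts that left 14938 genes. OVCAR3 is a long-established line from an ovarian carcinoma, and its OVCAR3-KRAB derivative stably expresses dCas9-KRAB, in which a Cas9 that cannot cut is joined to the KRAB repressor domain. These cells received a control sgRNA (sgCtl) or 1 of 2 sgRNAs directed to the promoter of *XIST* (sgXIST7 and sgXIST9). *XIST* is the long noncoding RNA of X inactivation. The cells were then cloned, and among the sgXIST clones those with reduced *XIST* were selected. They were grown either in normoxia or in a chamber with 1% oxygen for 24 h (hypoxia). The 6 groups had 3 replicates each, 18 libraries in all, and every library, sgCtl included, came from cells with dCas9-KRAB. How many clones stand behind each sgRNA is not given in the sources used here, so that the effect of an sgRNA and of the clones that carry it cannot be told apart.

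ERK is the last kinase of the cascade that runs from growth factor receptors through RAS, RAF and MEK. It raises the transcription of several of its own inhibitors, which form a negative feedback. The DUSP members are dual-specificity phosphatases that remove the activating phosphates from MAP kinases: DUSP4 and DUSP5 act in the nucleus, DUSP6, DUSP7 and DUSP9 in the cytoplasm. Sprouty proteins (SPRY1, SPRY2, SPRY4) and the related SPRED proteins act upstream, between the receptor and RAF, and SPRED proteins bring neurofibromin to the membrane to switch RAS off. RNA levels of these genes are often used as a readout of ERK signalling, but no kinase activity was measured in these libraries.

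Total counts per library ranged from 11794375 to 24906936. *XIST* itself was at 329, 867 and 242 CPM in the sgCtl normoxia libraries, at most 0.222 CPM in sgXIST7 normoxia and 29.0, 53.6 and 52.4 CPM in sgXIST9 normoxia. CPM here are counts normalized to a library of 1000000 counts after TMM scaling. The sgXIST7 normoxia values are 5, 4 and 1 counts, so that KD was deeper in sgXIST7 than in sgXIST9. The third sgCtl hypoxia library lay farthest from the others of its group, at a root mean square distance of 0.763 on the log2 scale against 0.305 to 0.597 for the other libraries. Values without it are given for the members whose call or pass changed when it was left out, and for *DUSP4*, *DUSP5*, *DUSP6* and *SPRY4*. Of the genes called in the pathway lists below, *EGR1*, *SHC1* and *ETV1* each lost 1 call without it, whereas *PHLDA1* gained 2 calls and *HBEGF*, *LRIG1* and *MAP2K2* gained 1 each. Of 12 hypoxia-induced genes chosen as a check, 10 were called higher in hypoxia in sgCtl, 11 in sgXIST7 and 11 in sgXIST9. Over all genes these shares were 11.3%, 15.1% and 14.7%. Of 10 markers of ovarian epithelial carcinoma, *PAX8*, *EPCAM*, *KRT8* and *KRT18* were present in every library, whereas *SOX17*, *MUC16*, *KRT7*, *CDH1* and *MECOM* had at most 4 counts in any library and *WT1* at most 14. Among markers of other cells, *PTPRC* and *CD3E* had at most 1 count, *CD14* at most 6, *LYZ* at most 8 and the endothelial markers at most 13. *CD68*, a lysosomal protein listed as a macrophage marker, had 202 to 1051 counts per library, was called in none of the KD comparisons and was called lower with hypoxia in sgXIST9 (-1.35 ± 0.28). The fibroblast markers *COL1A1* and *COL1A2* were called higher in both KD lines, and the summed CPM of the 5 fibroblast markers was 1.16 to 3.63 in the sgCtl libraries and 33.5 to 308 in the KD libraries. *DCN*, another of these, went the other way: it had 3 to 11 counts per library in sgCtl normoxia and 11 to 30 in sgCtl hypoxia against at most 4 in the KD libraries, and was called lower in both KD lines in hypoxia. *LUM* and *PDGFRB*, which also mark fibroblasts, had at most 8 counts in any library. The part of this in the results below was not tested, and in bulk RNA fewer cells of a type and less RNA per cell cannot be told apart.

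Promoter sequences were looked up for the members in the RefSeq table of the GRCh38.p14 assembly, whose windows of 300 bases run from 250 bases before to 50 after each start. The table held 13 windows for 8 of the 10 members, with none for *DUSP4* and *DUSP5*. Matches to 5 letter strings were searched on both strands: the hypoxia-response cores ACGTG and GCGTG, the cyclic AMP element TGACGTCA, the AP-1 site TGANTCA and the ETS site CCGGAAGT. The 250 bases before the start are shown, 5′ to 3′ on the gene's strand, for *DUSP6* and *SPRY4*, which passed the test in 3 and 4 of the 4 comparisons of KD with sgCtl. They are also shown for *DUSP7* and *SPRED1*, which were called higher in hypoxia in sgXIST7 but in neither sgCtl nor sgXIST9. Under the fold limit, *DUSP7* also passed in sgCtl and *SPRED1* in sgXIST9. Capitals mark a match to any of the strings.
DUSP6: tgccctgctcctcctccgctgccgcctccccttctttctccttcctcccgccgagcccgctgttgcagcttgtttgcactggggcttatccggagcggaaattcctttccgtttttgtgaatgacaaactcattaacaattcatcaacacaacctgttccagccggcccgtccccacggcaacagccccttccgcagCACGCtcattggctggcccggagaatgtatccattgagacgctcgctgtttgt
SPRY4: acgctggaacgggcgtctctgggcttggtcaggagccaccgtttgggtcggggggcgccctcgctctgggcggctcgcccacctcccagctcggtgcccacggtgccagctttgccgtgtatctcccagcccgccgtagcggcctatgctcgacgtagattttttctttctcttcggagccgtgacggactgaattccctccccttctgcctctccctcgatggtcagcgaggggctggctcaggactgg
DUSP7: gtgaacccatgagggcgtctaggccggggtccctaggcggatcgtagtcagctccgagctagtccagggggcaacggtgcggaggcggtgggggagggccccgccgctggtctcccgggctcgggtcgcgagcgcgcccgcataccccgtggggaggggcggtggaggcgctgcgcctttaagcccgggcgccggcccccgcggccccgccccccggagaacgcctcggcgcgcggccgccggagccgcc
SPRED1: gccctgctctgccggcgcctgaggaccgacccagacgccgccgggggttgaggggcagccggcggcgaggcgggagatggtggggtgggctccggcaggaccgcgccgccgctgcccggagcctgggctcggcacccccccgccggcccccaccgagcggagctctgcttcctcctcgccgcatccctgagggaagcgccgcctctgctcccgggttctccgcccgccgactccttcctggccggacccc
The *DUSP6* sequence lies at chr12:89352502-89352751, *SPRY4* at chr5:142324248-142324497 and *DUSP7* at chr3:52056572-52056821, all on the minus strand. The *SPRED1* sequence lies at chr15:38252586-38252835 on the plus strand. In *DUSP6*, 1 match to GCGTG, read on the opposite strand, begins 53 bases before the start, and the full windows of *SPRY4*, *DUSP7* and *SPRED1* held 0 matches. GCGTG was found in 36.5% and ACGTG in 21.4% of all 35116 windows, TGANTCA in 7.71%, CCGGAAGT in 4.14% and TGACGTCA in 1.85%. ACGTG was found in 1 of the 13 member windows, at the second of the *DUSP9* starts.

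Levels of different genes were compared per kilobase of exon length. In sgCtl normoxia, *SPRY1* stood highest at 68.6 ± 4.46 CPM per kb (SD, n = 3), followed by *SPRY2* at 43.9 ± 4.80. A middle group lay close together: *SPRED1* at 10.4 ± 0.146, *SPRY4* at 9.04 ± 0.923, *SPRED2* at 8.05 ± 1.67, *DUSP9* at 8.04 ± 1.41 and *DUSP6* at 7.99 ± 1.47 CPM per kb. Among these, the neighbours from *SPRED2* to *DUSP6* differed by less than their SDs, and *SPRY4* stood above *SPRED2* by more than its own SD but by less than that of *SPRED2*. *DUSP7* had 5.55 ± 0.235, *DUSP5* 1.91 ± 0.175 and *DUSP4* 0.313 ± 0.00560 CPM per kb. The nuclear phosphatases were thus the lowest members in control cells in normoxia.

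**Figure D1:**
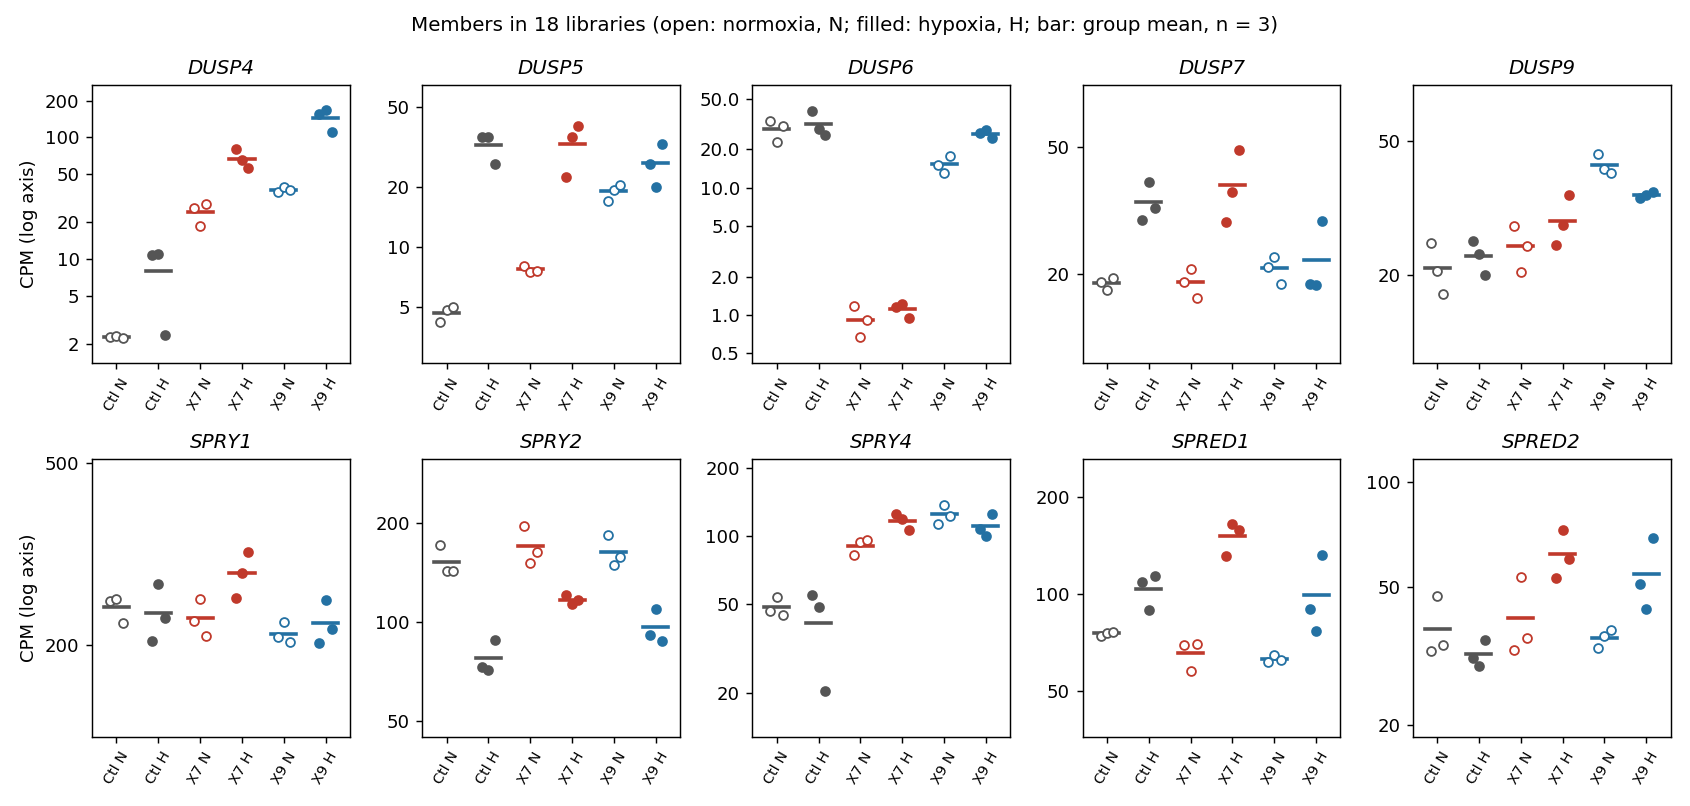
Normalized level (CPM, log axis) of each member in the 18 libraries, by sgRNA (Ctl, sgCtl; X7, sgXIST7; X9, sgXIST9) and oxygen (N, normoxia, open; H, hypoxia, filled), with the group mean as a bar. *DUSP4* rises from about 2 CPM in sgCtl normoxia to between 110 and 168 CPM in sgXIST9 hypoxia, *DUSP6* stays under 1.3 CPM in the 6 sgXIST7 libraries, and the third sgCtl hypoxia library is low for *DUSP4* and *SPRY4*.

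The first comparison asked which feedback genes differ when *XIST* is repressed in normoxia. A gene was called when its Benjamini-Hochberg adjusted p over all 14938 genes was under 0.01 in the quasi-likelihood test of edgeR and its log2 fold change was above 1 or below -1. In sgXIST7, 1 of 10 members was called higher (*DUSP4*) and 1 called lower (*DUSP6*), against 4.67% and 3.09% of all genes tested. In sgXIST9, 4 of 10 were called higher (*DUSP4*, *DUSP5*, *DUSP9* and *SPRY4*) and 0 lower, against 3.93% and 3.77% of all genes. The median log2 fold change of the 10 members was 0.13 in sgXIST7 and 0.13 in sgXIST9, beside -0.01 and -0.02 over all genes.

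*DUSP4* was the member with the largest rise. It was at 2.28, 2.32 and 2.24 CPM in sgCtl normoxia, at 26.1, 18.6 and 28.5 CPM in sgXIST7 and at 35.7, 39.4 and 36.8 CPM in sgXIST9. No KD library overlapped the sgCtl libraries. The log2 fold change was 3.42 ± 0.38 in sgXIST7 (10.7-fold, adjusted p = 3.5e-06) and 4.03 ± 0.38 in sgXIST9 (16.3-fold, adjusted p = 5.1e-07). The sgCtl values rest on 30 to 39 counts per library. An exact permutation test of 3 libraries against 3 gave p = 0.1 (two-sided), the smallest it can give, here and for each pair of groups below that did not overlap.

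*DUSP6*, the cytoplasmic phosphatase that is specific for ERK, went the other way. Its level was 33.4, 23.1 and 30.5 CPM in sgCtl normoxia against 1.17, 0.666 and 0.915 CPM in sgXIST7, which are 27, 12 and 21 counts. In sgXIST9 it was at 15.1, 13.1 and 17.6 CPM. The sgXIST7 libraries lay far below all others, and the sgXIST9 libraries below sgCtl without overlap. It fell by 4.95 on the log2 scale in sgXIST7 (standard error 0.24, 31.0-fold lower, adjusted p = 1.3e-10). In sgXIST9 it fell by 0.93 (standard error 0.18, adjusted p = 0.0014), which passed the test but lay under the fold limit. The test was not passed without the first sgCtl normoxia library (adjusted p = 0.011) or without the second sgXIST9 normoxia library (adjusted p = 0.012). The value crossed the fold limit at -1.06 without the second sgCtl normoxia library and at -1.04 without the third sgXIST9 normoxia library.

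*DUSP5*, a nuclear phosphatase that is specific for ERK, had 4.23, 4.87 and 5.05 CPM in sgCtl normoxia and 17.1, 19.3 and 20.4 CPM in sgXIST9. It rose in sgXIST9 (log2 fold change 2.001 ± 0.222, adjusted p = 3.4e-06). In sgXIST7 its 8.09, 7.55 and 7.63 CPM also lay above all sgCtl values, but the log2 fold change of 0.72 ± 0.22 did not pass (adjusted p = 0.029). A pseudogene, *DUSP5P1*, is listed separately with 19 to 295 counts per library, and how reads shared with *DUSP5* were counted is not given in the sources used here.

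The X-linked member *DUSP9* was at 24.8, 20.5 and 17.5 CPM in sgCtl normoxia and at 45.8, 41.3 and 40.0 CPM in sgXIST9. Its log2 fold change of 1.02 ± 0.15 in sgXIST9 (adjusted p = 9.9e-05) was just above the fold limit, and it lay under the limit at 0.90 without the third sgCtl library, at 0.96 without the first sgXIST9 library and at 0.99 with upper-quartile scaling. In sgXIST7, where *XIST* was lowest, the values of 28.0, 20.4 and 24.4 CPM overlapped those of sgCtl (log2 fold change 0.22 ± 0.15, adjusted p = 0.36). *DUSP7* had log2 fold changes of 0.01 ± 0.20 and 0.16 ± 0.20 in sgXIST7 and sgXIST9 and did not pass.

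Of the Sprouty genes, *SPRY4* alone passed in normoxia. It was at 46.1, 53.7 and 44.5 CPM in sgCtl, at 81.9, 93.4 and 95.5 CPM in sgXIST7 and at 113, 137 and 122 CPM in sgXIST9, without overlap between KD and sgCtl. It rose in sgXIST9 (log2 fold change 1.37 ± 0.23, adjusted p = 2.8e-04), and in sgXIST7 the log2 fold change of 0.91 ± 0.23 passed the test under the fold limit (adjusted p = 0.0077). With any 1 of the 6 libraries left out, the sgXIST7 value no longer passed (adjusted p from 0.013 to 0.040). *SPRY1*, *SPRY2*, *SPRED1* and *SPRED2* had log2 fold changes between -0.26 and 0.16 in the normoxia comparisons and none of them passed.

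**Figure D2:**
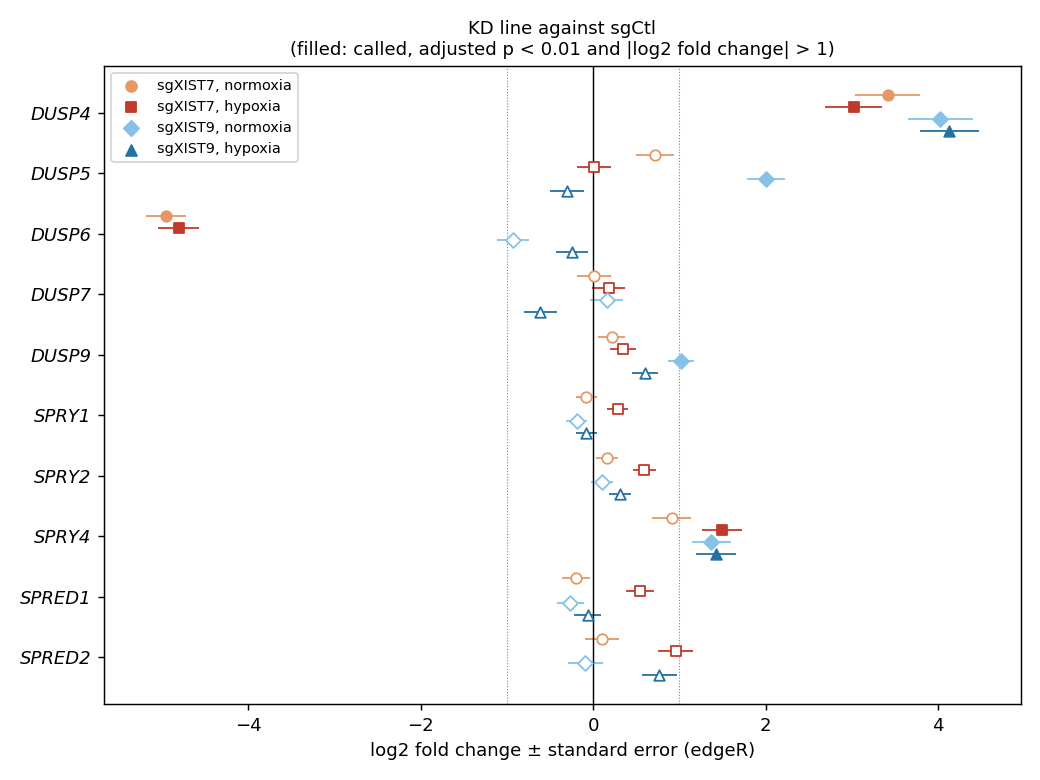
Log2 fold change (edgeR, with its standard error) of each member in the KD lines against sgCtl, in normoxia and hypoxia; filled symbols mark called values and dotted lines the fold limit. *DUSP4* lies between 3.02 and 4.13 in the 4 comparisons, and *DUSP6* at -4.95 and -4.80 in sgXIST7 but at -0.93 and -0.25 in sgXIST9.

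The same comparison was made in hypoxia, against the sgCtl hypoxia libraries. *XIST* itself was at 123, 249 and 141 CPM in these. It was called lower there than in sgCtl normoxia (log2 fold change -1.485 ± 0.407, adjusted p = 0.0059 by edgeR), with overlapping libraries. Against sgCtl, the log2 fold change of *XIST* in hypoxia was -10.75 in sgXIST7 and -2.88 in sgXIST9, beside -11.52 and -3.41 in normoxia. In sgXIST7, 2 of 10 members were called higher (*DUSP4* and *SPRY4*) and 1 lower (*DUSP6*), against 7.83% and 6.19% of all genes. In sgXIST9, 2 of 10 were called higher (*DUSP4* and *SPRY4*) and 0 lower, against 6.14% and 3.39%. The median over the members was 0.45 in sgXIST7 and 0.12 in sgXIST9, beside -0.02 and -0.01 over all genes.

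In hypoxia, *DUSP4* stood at 10.8, 10.9 and 2.39 CPM in sgCtl, at 80.0, 65.0 and 56.0 CPM in sgXIST7 and at 155, 168 and 110 CPM in sgXIST9. The third sgCtl library was at the level of normoxia, and all KD libraries lay above all sgCtl libraries. The log2 fold change was 3.02 ± 0.33 in sgXIST7 (adjusted p = 2.6e-06) and 4.13 ± 0.34 in sgXIST9 (adjusted p = 1.3e-07). Without the third sgCtl hypoxia library it was 2.63 and 3.74, and both remained called.

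*SPRY4* was at 54.8, 48.1 and 20.5 CPM in sgCtl hypoxia, where the third library was again the low one. It was at 125, 119 and 106 CPM in sgXIST7 and at 107, 99.8 and 126 CPM in sgXIST9, above all sgCtl libraries. The log2 fold changes were 1.50 ± 0.23 (adjusted p = 8.7e-05) and 1.42 ± 0.23 (adjusted p = 1.7e-04). Without the third sgCtl library they were 1.18 and 1.10 and remained called. When the fit held no other groups than the pair compared, the adjusted p was 0.012 in sgXIST7 and 0.030 in sgXIST9, so that neither was called.

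*DUSP6* remained near the bottom in sgXIST7 hypoxia at 1.15, 1.22 and 0.950 CPM, against 40.2, 28.8 and 25.8 CPM in sgCtl hypoxia. It fell by 4.80 on the log2 scale (standard error 0.24, adjusted p = 2.1e-10), and the log2 fold change without the third sgCtl library was -4.93. The sgXIST9 libraries, at 27.2, 28.3 and 24.5 CPM, overlapped those of sgCtl, with a log2 fold change of -0.25 ± 0.18 that did not pass (adjusted p = 0.33). With all libraries, *DUSP5* did not differ detectably between KD and sgCtl in hypoxia. Its log2 fold changes were 0.01 ± 0.20 in sgXIST7 and -0.30 ± 0.20 in sgXIST9 (95% confidence intervals from -0.41 to 0.43 and from -0.73 to 0.12). Without the third sgCtl library these were -0.12 and -0.44. With the 3 hypoxia libraries of replicate 3 left out together, they were -0.29 and -0.63 (adjusted p = 0.19 and 0.01).

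Smaller differences in hypoxia passed the test under the fold limit. *SPRED2*, at 31.1, 29.6 and 35.2 CPM in sgCtl, was at 52.9, 73.0 and 60.2 CPM in sgXIST7 and at 51.1, 43.1 and 69.0 CPM in sgXIST9. Its log2 fold changes were 0.96 ± 0.20 (adjusted p = 0.0012) and 0.77 ± 0.20 (adjusted p = 0.0081), with no overlap with sgCtl. In sgXIST7 it crossed the fold limit at 1.03 without the third sgCtl hypoxia library and at 1.06 without the first sgXIST7 hypoxia library. In sgXIST9 it no longer passed without 1 of 4 libraries, namely the first or the second of sgCtl and the first or the third of sgXIST9 (adjusted p up to 0.052). *SPRY2* in sgXIST7 (0.60 ± 0.13, adjusted p = 0.0016) passed as well, but not without the first or the second sgCtl library (adjusted p = 0.012 and 0.011). *DUSP9* in sgXIST9 (0.60 ± 0.15, adjusted p = 0.0065) passed with all libraries, and with any 1 of the 6 left out it did not (adjusted p from 0.010 to 0.021). Without the third sgCtl library it was 0.52 (adjusted p = 0.018). *DUSP7* had 0.18 ± 0.19 and -0.61 ± 0.19, *SPRED1* 0.54 ± 0.16 and -0.06 ± 0.16, and *SPRY1* 0.29 ± 0.12 and -0.08 ± 0.12 in sgXIST7 and sgXIST9, and none of these passed. *SPRED1* in sgXIST7 (adjusted p = 0.011) passed without the third sgCtl library (0.61, adjusted p = 0.0078), without the first sgXIST7 library (0.63, adjusted p = 0.0076) and with a replicate block (0.55, adjusted p = 0.0054). *DUSP7* in sgXIST9 passed without the third sgXIST9 library (-0.87, adjusted p = 0.0022).

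The response to 24 h of hypoxia was then read for each sgRNA. In sgCtl, 2 of 10 members were called higher (*DUSP4* and *DUSP5*) and 0 lower, against 11.3% and 8.49% of all genes. In sgXIST7, 4 of 10 were called higher (*DUSP4*, *DUSP5*, *DUSP7* and *SPRED1*) and 0 lower, against 15.1% and 12.2%. In sgXIST9, 1 of 10 was called higher (*DUSP4*) and 0 lower, against 14.7% and 8.58%. The member medians were 0.12, 0.49 and 0.27, beside 0.02, 0.01 and 0.09 over all genes.

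*DUSP5* went from 4.23, 4.87 and 5.05 CPM to 35.3, 35.2 and 26.0 CPM in sgCtl, a 6.82-fold rise (log2 fold change 2.77 ± 0.22, adjusted p = 5.5e-08, and 2.90 without the third hypoxia library). In sgXIST7 it reached 22.2, 35.4 and 40.1 CPM (log2 fold change 2.07 ± 0.21, adjusted p = 3.6e-07). In sgXIST9, where it was already at 17.1 to 20.4 CPM in normoxia, the hypoxia libraries at 25.8, 19.9 and 32.7 CPM overlapped those of normoxia, and the log2 fold change of 0.46 ± 0.20 did not pass (adjusted p = 0.060). In hypoxia the libraries of the 3 sgRNAs overlapped, whereas in normoxia each sgRNA stood apart. The difference of the responses was itself tested: the response of sgXIST9 was lower than that of sgCtl by 2.31 on the log2 scale (interaction term -2.31 ± 0.30, 95% confidence interval -2.94 to -1.68, adjusted p = 4.2e-04). Without the third sgCtl hypoxia library it was -2.44 (adjusted p = 8.1e-05). For this contrast, 0 of 10 members were called higher and 1 lower, against 0.663% and 0.348% of all genes, which is 99 and 52 genes with TMM and 131 and 42 with upper-quartile scaling. This background depended on single libraries: without the third sgCtl hypoxia library 469 genes were called higher and 256 lower, and over fits that each lacked 1 library the counts ranged from 40 to 469 and from 17 to 256. In sgXIST7 the response of *DUSP5* differed from that in sgCtl by -0.70 ± 0.30, which did not pass (adjusted p = 0.14). Without the 3 hypoxia libraries of replicate 3 together, it was -0.997 and passed under the fold limit (adjusted p = 0.0068).

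*DUSP4* rose in hypoxia with each sgRNA. The log2 fold change was 1.86 ± 0.39 in sgCtl (adjusted p = 7.7e-04), 1.46 ± 0.31 in sgXIST7 (adjusted p = 5.8e-04) and 1.96 ± 0.31 in sgXIST9 (adjusted p = 4.5e-05). In sgCtl the value without the third hypoxia library was 2.25 (adjusted p = 8.0e-07), and a fit without the other 4 groups gave 1.85 with an adjusted p of 0.020, which was not called. The responses of the KD lines differed from that of sgCtl by -0.40 ± 0.49 in sgXIST7 and 0.10 ± 0.51 in sgXIST9, and neither passed. With the third sgCtl library left out these were -0.79 and -0.29, neither of which passed.

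*DUSP7* rose in hypoxia from 18.8, 17.8 and 19.4 CPM to 29.6, 38.8 and 32.3 CPM in sgCtl (log2 fold change 0.85 ± 0.20, adjusted p = 0.0017, under the fold limit). In sgXIST7 it went from 18.8, 20.8 and 16.7 CPM to 29.1, 36.2 and 49.2 CPM and was called (1.02 ± 0.20, adjusted p = 2.5e-04), though it lay under the limit at 0.94 without the third sgXIST7 normoxia library and at 0.81 without the third sgXIST7 hypoxia library. In sgXIST9 the hypoxia libraries, at 18.5, 18.4 and 29.3 CPM, overlapped those of normoxia (0.08 ± 0.19, adjusted p = 0.75). The response of sgXIST7 differed from that of sgCtl by 0.171 ± 0.275, which did not pass (adjusted p = 0.72). The response of sgXIST9 differed from that of sgCtl by -0.77 ± 0.28, which did not pass (adjusted p = 0.11).

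*SPRED1*, an inhibitor of RAS activation, was at 69.4, 57.5 and 69.6 CPM in sgXIST7 normoxia and at 131, 165 and 158 CPM in hypoxia. The rise in sgXIST7 was called (log2 fold change 1.21 ± 0.16, adjusted p = 6.5e-06). In sgXIST9 it passed under the fold limit (0.66 ± 0.16, adjusted p = 0.0022), and in sgCtl the value of 0.46 ± 0.16 did not pass (adjusted p = 0.023). The response of sgXIST7 differed from that of sgCtl by 0.75 ± 0.23, which did not pass (adjusted p = 0.047). Without the 3 hypoxia libraries of replicate 3 together, this difference was 0.79 and passed under the fold limit (adjusted p = 0.0022). With all libraries, 0 of 10 members were called in either direction for this contrast, against 0.904% of all genes higher and 0.616% lower. Those shares are 135 and 92 genes, which became 673 and 525 without the third sgCtl hypoxia library and 219 and 152 with a replicate block, and ranged from 55 to 673 and from 25 to 525 over fits that each lacked 1 library. *SPRED2* differed in its response by 0.86 ± 0.28 in sgXIST7 and 0.86 ± 0.28 in sgXIST9, neither of which passed (adjusted p = 0.064 and 0.086).

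*SPRY2* was the one member that fell in hypoxia with each sgRNA. It went from 171, 142 and 142 CPM to 72.6, 71.5 and 88.0 CPM in sgCtl, from 196, 150 and 163 CPM to 121, 113 and 116 CPM in sgXIST7, and from 184, 149 and 157 CPM to 91.3, 109 and 87.6 CPM in sgXIST9. No hypoxia library overlapped the normoxia libraries of its sgRNA. It fell by 0.97 in sgCtl (adjusted p = 1.1e-05), by 0.54 in sgXIST7 (adjusted p = 0.0017) and by 0.77 in sgXIST9 (adjusted p = 9.1e-05) on the log2 scale, all under the fold limit. In sgCtl it crossed the limit at -1.07 without the third hypoxia library and at -1.02 and -1.03 without the second and without the third normoxia library.

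The remaining members moved less with oxygen. *DUSP6* passed in sgXIST9 under the fold limit (0.80 ± 0.18, adjusted p = 0.0014), where it rose from 15.1, 13.1 and 17.6 CPM to 27.2, 28.3 and 24.5 CPM, and had 0.13 ± 0.18 in sgCtl and 0.28 ± 0.28 in sgXIST7. *SPRY4* had -0.22 ± 0.23 in sgCtl, and 0.10 without the third hypoxia library, 0.37 ± 0.22 in sgXIST7 and -0.17 ± 0.22 in sgXIST9. *SPRED2* had -0.25 ± 0.20, 0.61 ± 0.20 and 0.61 ± 0.20, *DUSP9* had 0.12 ± 0.16, 0.25 ± 0.15 and -0.29 ± 0.15, and *SPRY1* had -0.04 ± 0.12, 0.32 ± 0.12 and 0.07 ± 0.12 in sgCtl, sgXIST7 and sgXIST9. Except for *DUSP6* in sgXIST9, none of these passed. With a replicate block, *SPRED2* passed under the fold limit in sgXIST7 (0.62, adjusted p = 0.0074) and sgXIST9 (0.61, adjusted p = 0.0089). It also passed in sgXIST7 without the second normoxia library (0.855, adjusted p = 0.0017) or without the first hypoxia library (0.726, adjusted p = 0.009). In sgXIST9 it passed without the second hypoxia library (0.757, adjusted p = 0.0063). Of the passes under the fold limit with oxygen, those of *DUSP6* and *SPRED1* in sgXIST9, *SPRY2* in sgXIST7 and *DUSP7* in sgCtl were lost without 1 or 2 of the 6 single libraries (adjusted p from 0.010 to 0.014).

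**Figure D3:**
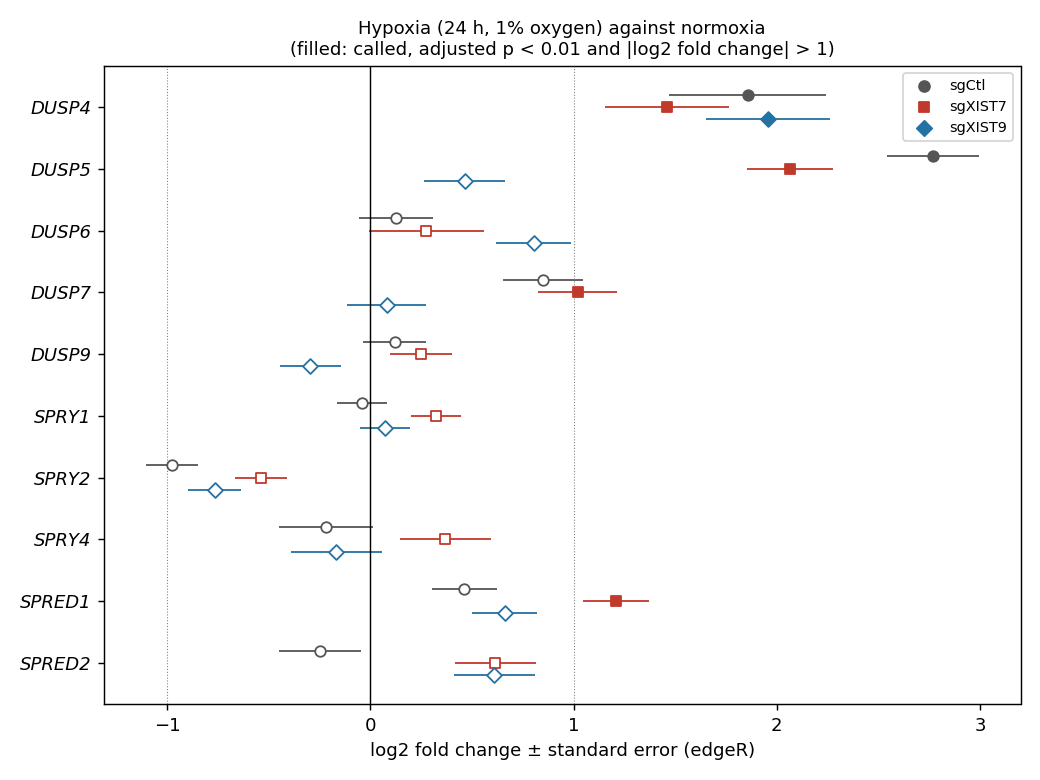
Log2 fold change (edgeR, with its standard error) of each member in hypoxia against normoxia within sgCtl, sgXIST7 and sgXIST9; filled symbols mark called values and dotted lines the fold limit. *DUSP4* is called with the 3 sgRNAs, *DUSP5* lies at 2.77 and 2.07 in sgCtl and sgXIST7 but at 0.46 in sgXIST9, and *SPRY2* lies below 0 with each sgRNA.

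The KD lines were compared directly, since both target the same promoter. In normoxia, 0 of 10 members were called higher in sgXIST7 than in sgXIST9 and 2 lower (*DUSP5* and *DUSP6*), against 2.09% and 1.31% of all genes. *DUSP6* was lower by 4.03 ± 0.23 on the log2 scale in normoxia (log2 fold change -4.03, adjusted p = 3.0e-09) and *DUSP5* by 1.28 ± 0.21 (log2 fold change -1.28, adjusted p = 4.9e-04). *DUSP9* passed under the fold limit at -0.80 ± 0.15 (adjusted p = 0.0019), and *DUSP4* at -0.61 ± 0.30 did not pass (adjusted p = 0.26). In hypoxia, 0 were called higher and 1 lower (*DUSP6*, -4.56 ± 0.23, adjusted p = 7.2e-10), against 2.06% and 2.4%. *DUSP7* was higher in sgXIST7 hypoxia under the fold limit (0.79 ± 0.19, adjusted p = 0.0095), with overlapping libraries, and *DUSP4* at -1.11 ± 0.30 missed the threshold (adjusted p = 0.016). The pass of *DUSP7* was lost without 1 of 4 of the 6 libraries (adjusted p up to 0.062), and that of *DUSP9* in normoxia without 1 of 3 (adjusted p up to 0.015). Without the third sgXIST9 hypoxia library, *DUSP4* at -1.27 and *DUSP7* at 1.04 were both called as well, which brings the count to 3.

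The genes whose level followed *DUSP6* most closely over the 18 libraries were *ATP6V1F* (Pearson r = 0.975 between log2 CPM values), *CUL1* (0.967), *NR2F2* (0.966), *NDUFB2* (0.963) and *FAM71D* (0.962). Of these, *ATP6V1F*, *CUL1* and *NDUFB2* lie on chromosome 7, and their log2 fold changes in sgXIST7 normoxia were -1.24, -1.06 and -1.18. *NR2F2*, a nuclear receptor on chromosome 15, had -7.77, and *FAM71D* on chromosome 14 had -2.93. *DUSP6* itself is on chromosome 12, and of the 6 genes tested within 1 Mb of it, 1 was called lower in sgXIST7 and 1 in sgXIST9 in normoxia. For *SPRY4* the closest were *SMAD4* (0.946), *ZNF626* (0.945), *RASSF3* (0.941), *SPRY4-IT1* (0.935) and *METTL7B* (0.930). *SPRY4-IT1* lies between the ends of *SPRY4* on the same strand and had 12 to 150 counts per library, so that reads of the 2 may be shared and its value is uncertain. These correlations are descriptions over libraries that share sgRNA and oxygen groups.

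Other phosphatases of the family were listed by name as *DUSP1*, *DUSP2*, *DUSP8*, *DUSP10* and *DUSP16*, and 4 of these 5 were tested. In hypoxia 3 were called higher in sgCtl, 2 in sgXIST7 and 2 in sgXIST9, and 0 lower. Over all genes 11.3%, 15.1% and 14.7% were called higher and 8.49%, 12.2% and 8.58% lower. *DUSP1*, an immediate-early phosphatase of all 3 MAP kinase classes, rose by a log2 fold change of 2.88 ± 0.43 in sgCtl, 2.69 ± 0.41 in sgXIST7 and 2.09 ± 0.40 in sgXIST9. *DUSP10*, which acts on the stress kinases JNK and p38, rose by 2.36 ± 0.39, 1.65 ± 0.38 and 2.64 ± 0.47 from levels under 1 CPM on average. *DUSP16* was called in sgCtl alone (1.62 ± 0.14), and its response in sgXIST9 was lower by 1.22 ± 0.20 (interaction term -1.22, adjusted p = 0.0023). Against sgCtl, *DUSP10* was called lower in sgXIST9 in normoxia (-1.94 ± 0.50) and hypoxia (-1.66 ± 0.36), and no other gene of the list was called in a KD comparison. Of *SPRY3* and *SPRED3*, the second was tested and was called higher in sgXIST7 normoxia (1.11 ± 0.26, adjusted p = 0.0045).

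Among 4 other inhibitors of receptor kinases (*ERRFI1*, *LRIG1*, *IL17RD* and *CBL*), all tested, *LRIG1*, which promotes degradation of ERBB receptors, was called lower in sgXIST7 hypoxia against sgCtl (-1.49 ± 0.39) and higher with hypoxia in sgXIST9 (2.24 ± 0.41). *ERRFI1*, an inhibitor of the EGF receptor, differed in its hypoxia response between sgXIST7 and sgCtl by 1.03 ± 0.14 (adjusted p = 4.1e-04). No other gene of this list was called in the KD comparisons or the hypoxia comparisons.

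Of 16 transcripts known to respond to ERK, 15 were tested. In normoxia 1 was called higher and 2 lower in sgXIST7, against 4.67% and 3.09% of all genes. In sgXIST9 normoxia 3 were called higher and 0 lower, against 3.93% and 3.77%. In hypoxia 4 were called higher and 1 lower in sgXIST7, against 7.83% and 6.19%. In sgXIST9 hypoxia 2 were called higher and 2 lower, against 6.14% and 3.39%. The list medians were 0.13 and 0.52 in sgXIST7 normoxia and hypoxia and 0.10 and 0.23 in sgXIST9 on the log2 scale, beside all-gene medians from -0.02 to -0.01. *PHLDA1*, a pleckstrin-homology protein, was called in all 4: its mean rose from 6.31 ± 3.39 CPM in sgCtl normoxia to 149 ± 30.2 CPM in sgXIST7 and 531 ± 24.1 CPM in sgXIST9 (SD, n = 3). Its log2 fold change was 4.58 ± 0.41 in sgXIST7 and 6.41 ± 0.44 in sgXIST9 in normoxia, and 4.74 ± 0.40 and 4.95 ± 0.40 in hypoxia. *ETV1*, an ETS transcription factor, was called higher in sgXIST9 in normoxia (1.95 ± 0.22) and in both lines in hypoxia (1.79 ± 0.23 and 3.17 ± 0.24). *EPHA2*, a receptor kinase, was called higher in sgXIST9 normoxia (1.06 ± 0.22), and the transcription factors *EGR1* (1.57 ± 0.36) and *ETV4* (1.50 ± 0.28) in sgXIST7 hypoxia. Without the third sgCtl library *EGR1* did not pass there (1.41, adjusted p = 0.011). *FOSL1*, a subunit of AP-1, was called lower in sgXIST7 normoxia (-1.40 ± 0.23) and sgXIST9 hypoxia (-1.38 ± 0.23), as was *IER3* (-1.75 ± 0.41 and -1.32 ± 0.33). The ERK-responsive genes were thus called in both directions in sgXIST7 and in sgXIST9 hypoxia, and only higher in sgXIST9 normoxia. The fall of *IER3* in sgXIST7 normoxia rests on few counts per library, given in the next paragraph.

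With hypoxia, 4 of the 15 were called higher and 2 lower in sgCtl, 5 higher and 1 lower in sgXIST7, and 3 higher and 2 lower in sgXIST9, beside 11.3%, 15.1% and 14.7% of all genes higher and 8.49%, 12.2% and 8.58% lower. *FOS*, an immediate-early subunit of AP-1, rose with each sgRNA, by 3.54 ± 0.22 in sgCtl, 4.13 ± 0.21 in sgXIST7 and 2.72 ± 0.21 in sgXIST9 on the log2 scale. *HBEGF*, a ligand of the EGF receptor, rose by 2.82 ± 0.36, 1.77 ± 0.36 and 1.89 ± 0.36. *IER3* was called in sgCtl (1.75 ± 0.34) and sgXIST7 (2.92 ± 0.39), from 9 to 23 and 2 to 9 counts per normoxia library, and *EGR1* in sgXIST7 (2.13 ± 0.37). *AREG*, another EGF receptor ligand, was called in sgCtl, where it went from 0 to 6 counts per library to 1 to 59 with overlap, and in sgXIST9, where it went from 0 to 1 counts to 4 to 24. *CCND1*, which encodes cyclin D1, was called lower in sgXIST7 (-1.25 ± 0.11) and sgXIST9 (-1.21 ± 0.11) and passed under the fold limit in sgCtl (-0.73 ± 0.11). The genes called lower in sgCtl were *ETV1* (-1.07 ± 0.23) and *ETV4* (-1.53 ± 0.28), and *FOSL1* was called lower in sgXIST9 (-1.20 ± 0.23), all named after their values were seen. *ETV1* in sgCtl lay under the fold limit at -0.78 without the third hypoxia library. The responses of *ETV1* differed between sgXIST7 and sgCtl by 1.49 ± 0.31 (adjusted p = 0.0092), the one gene of the list called in a difference of responses.

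The cascade itself was read from 20 genes from adaptors to ERK, all tested. In normoxia 0 were called higher and 1 lower in sgXIST7 (*BRAF*, -1.05 ± 0.16) and 0 higher and 1 lower in sgXIST9 (*GAB1*, a docking adaptor, -2.75 ± 0.23). Over all genes 4.67% and 3.93% were called higher and 3.09% and 3.77% lower, so that 1 of 20 lies near the background. In hypoxia 2 were called higher and 2 lower in sgXIST7: *SHC1* at 1.50 ± 0.17 and *MAP2K1* at 1.04 ± 0.14 against *BRAF* at -1.33 ± 0.16 and *MAP2K2* at -1.02 ± 0.20. In sgXIST9 hypoxia *SHC1* was called higher (1.00 ± 0.17, under the fold limit at 0.97 without the third sgCtl library) and *MAP2K2* lower (-1.07 ± 0.20). Over all genes 7.83% were called higher and 6.19% lower in sgXIST7 hypoxia, and 6.14% and 3.39% in sgXIST9 hypoxia. *BRAF* lies on chromosome 7, like 3 of the genes that followed *DUSP6*, and a link between these was not tested. With hypoxia, 2 cascade genes were called higher in sgCtl, 6 in sgXIST7 and 3 in sgXIST9, and 0 lower. Over all genes 11.3%, 15.1% and 14.7% were called higher, so that the counts of 2 and 3 of 20 in sgCtl and sgXIST9 lie near the background. *GAB1* was called with each sgRNA (1.39 ± 0.20, 1.86 ± 0.20 and 3.39 ± 0.23). *KSR1*, a scaffold of the cascade, was called in sgCtl (1.16 ± 0.23) and sgXIST9 (1.19 ± 0.23), *SOS2*, a RAS exchange factor, in sgXIST7 (1.50 ± 0.14) and sgXIST9 (1.41 ± 0.14), and *MAP2K1* (1.69 ± 0.14) and *SHC1* (1.64 ± 0.17) in sgXIST7. The response of *SHC1* differed between sgXIST7 and sgCtl by 1.80 ± 0.23 (adjusted p = 4.1e-04) and that of *GAB1* between sgXIST9 and sgCtl by 2.005 ± 0.298 (adjusted p = 0.0014).

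**Figure D4:**
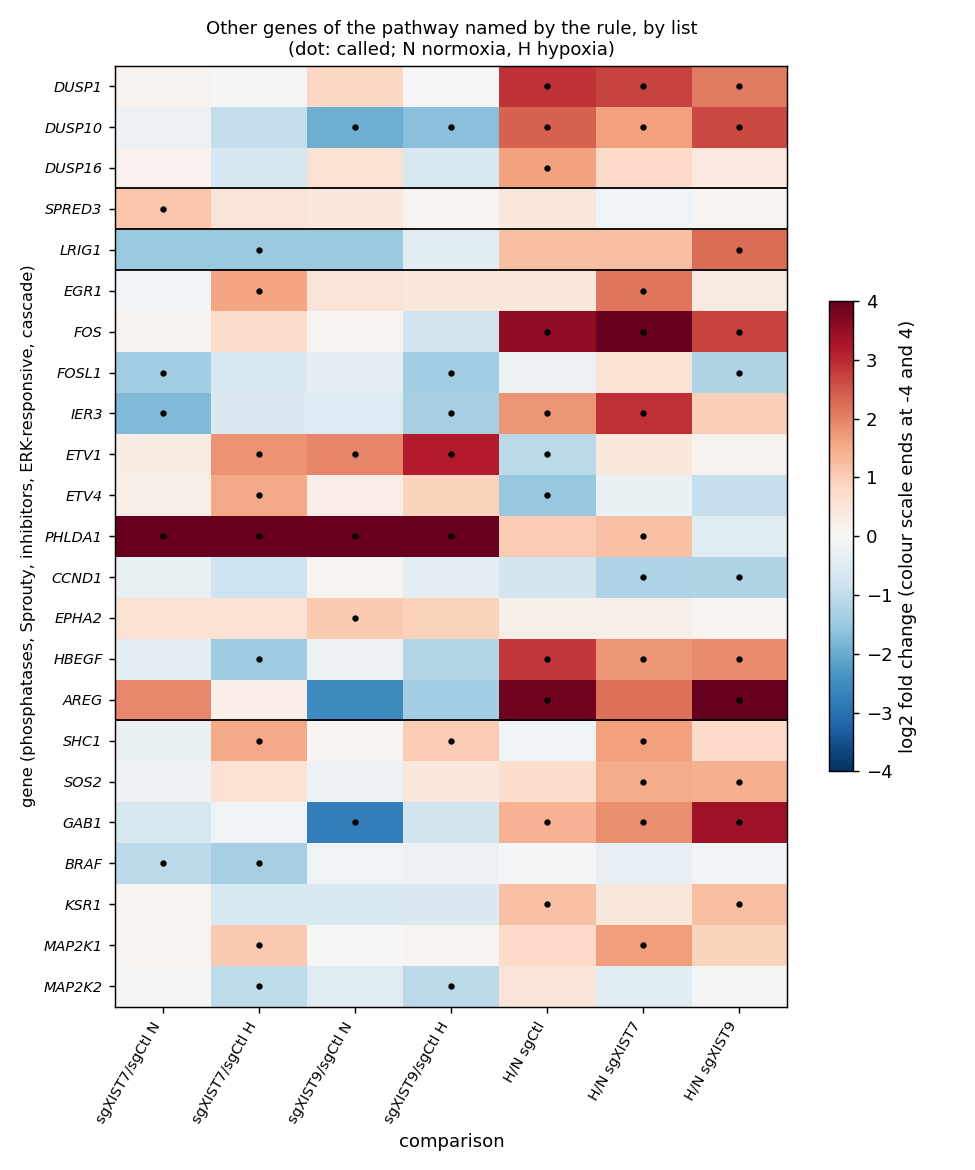
Log2 fold changes of those other genes of the pathway that were among the 4 largest called changes of their list in a comparison shown (rows, in list order) in the 4 KD comparisons and the 3 hypoxia comparisons (columns), with a dot for each called gene. *PHLDA1* is dotted in the 4 KD columns, *DUSP1* and *FOS* in the 3 hypoxia columns, and *BRAF* in both sgXIST7 columns.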

How the data were processed

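Total RNA of 18 OVCAR3-KRAB libraries was depleted of ribosomal RNA, and stranded paired-end libraries were sequenced. The authors used Trimmomatic for trimming, HISAT2 for alignment (build hg38) and featureCounts for the gene counts. The strand setting of the counting and its treatment of reads with several positions are not given in the sources used here. The deposited values are raw counts per gene, listed by symbol for 28277 genes after 2 lines of a broken record were left out. Groups were taken from the sample labels.

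Counts were tested in R 4.3.3 with the robust quasi-likelihood test of edgeR 4.0.16 (with limma 3.58.1). The 6 groups were fitted together with TMM scaling, filterByExpr (minimum count 10, minimum total 15) and a prior count of 0.125. Scripts were tested on simulated data. P-values were adjusted over all 14938 genes tested, and fold changes carry standard errors. Counts of members over different comparisons share libraries: both KD lines were compared with the same sgCtl libraries. Replicates are biological replicates per the study, but whether they came from separate clones is not given in the sources used here, so that p-values measure only the spread between these libraries. The members and gene lists were chosen with earlier results of these data known, and the lists were written from general knowledge. The text names all members, and for each list the called genes, up to 4 per comparison by size of change. The alternatives were DESeq2 1.42.0, 2 other scalings, 2 other filters, other thresholds, a fit of only the groups compared, a replicate block and leaving out each library. The 3 hypoxia libraries of replicate 3 were also left out together. Some genes of the lists are not reported here.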

Additional observations from a re-analysis of the deposited data

Results flagged for a closer look

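The lines differed in 4 tested effects on members. The response of *DUSP5* to hypoxia in sgXIST9 differed from that in sgCtl (interaction term -2.31 ± 0.30 on the log2 scale, adjusted p = 4.2e-04 by edgeR, libraries of sgXIST9 overlapping between oxygen levels). In normoxia the effect of the 2 sgRNAs on *DUSP5* differed (sgXIST7 against sgXIST9 -1.28 ± 0.21, adjusted p = 4.9e-04, lower in 3 of 3 libraries). The effect on *DUSP6* differed in normoxia (-4.03 ± 0.23, adjusted p = 3.0e-09) and in hypoxia (-4.56 ± 0.23, adjusted p = 7.2e-10), lower in 3 of 3 sgXIST7 libraries each time. Clone and sgRNA cannot be told apart.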

How the results depend on the processing

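Calls of *DUSP4* and *DUSP6* in the KD comparisons were kept under every alternative run, with the exception that *DUSP6* in sgXIST9 normoxia was called only when 1 of 2 single libraries was left out. The alternatives were tallied for 90 log2 fold changes of members. These were all 10 members against sgCtl and with hypoxia. In the differences of responses only *DUSP4*, *DUSP5*, *DUSP7*, *SPRED1* and *SPRED2* were tallied, and between the KD lines only the 5 DUSP members. Of the values under the alternatives, 1241 kept their direction and side of the threshold, 9 lost the call, 14 gained it and 31 changed sign. The 31 were of values that were not called. Of the counts of members, 173 stayed within 1.5 times and 12 did not. Without the fold limit, 5 members passed in sgXIST7 and 4 in sgXIST9 against sgCtl in hypoxia, 4 in hypoxia against normoxia in sgCtl and 4 in sgXIST9. The share of all genes with no fold limit or at an adjusted p under 0.05 is not given here. Counts of members in these 2 settings are therefore not set against a background. In a fit of only the groups compared, 1 member was called in sgXIST9 against sgCtl in hypoxia (*DUSP4*) and 1 in hypoxia against normoxia in sgCtl (*DUSP5*). Between sgXIST7 and sgXIST9 in hypoxia, 2 members were called at an adjusted p under 0.05, with no fold limit, with DESeq2 or without the hypoxia libraries of replicate 3, and from 1 to 3 when single libraries were left out. With those libraries of replicate 3 left out, 2 members differed in the response of sgXIST9 and sgCtl (*DUSP5* and *DUSP7*). The same setting gave *DUSP5* -0.287 and *DUSP7* -0.065 in sgXIST7 against sgCtl in hypoxia, *SPRY4* 0.102 with hypoxia in sgCtl, *DUSP7* -0.166 with hypoxia in sgXIST9, and differences of responses of -0.066 (*DUSP7*, sgXIST7) and -0.126 (*DUSP4*, sgXIST9). Against sgCtl in hypoxia, *SPRED1* in sgXIST7 (0.585, adjusted p = 0.0012) and *DUSP7* in sgXIST9 (-0.896, adjusted p = 2.0e-04) newly passed under it. There *SPRED2* crossed the fold limit in sgXIST7 (1.057). In sgXIST9, *SPRED2* (0.631, adjusted p = 0.036) and *DUSP9* (0.509, adjusted p = 0.018) no longer passed. For hypoxia against normoxia without the libraries of replicate 3, *SPRY4* (0.444, adjusted p = 0.0018) and *SPRED2* (0.651, adjusted p = 0.0098) newly passed in sgXIST7. In sgCtl, *SPRED1* (0.396, adjusted p = 0.0084) newly passed. Upper-quartile scaling gave -0.010 for *DUSP7* in sgXIST7 normoxia and -0.026 for *DUSP5* in sgXIST7 hypoxia. The cause of these shifts was not tested.

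Leaving out single libraries against sgCtl in normoxia gave -0.068 to 0.085 for *DUSP7* and -0.143 to 0.279 for *SPRED2* in sgXIST7, and -0.184 to 0.092 for *SPRED2* in sgXIST9. In hypoxia it gave -0.160 to 0.223 for *DUSP5* and -0.039 to 0.337 for *DUSP7* in sgXIST7, and -0.178 to 0.038 for *SPRY1* and -0.327 to 0.084 for *SPRED1* in sgXIST9. For hypoxia against normoxia it gave -0.078 to 0.253 for *DUSP6*, -0.001 to 0.254 for *DUSP9*, -0.156 to 0.058 for *SPRY1* and -0.466 to 0.101 for *SPRY4* in sgCtl, and -0.167 to 0.201 for *DUSP7* and -0.015 to 0.150 for *SPRY1* in sgXIST9. Differences of responses ranged from -0.042 to 0.333 for *DUSP7* in sgXIST7, and from -0.289 to 0.372 for *DUSP4* and -0.059 to 0.353 for *SPRED1* in sgXIST9.

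Replicate numbers are shared by the groups, but 15 of 45 correlations between the deviations of same-numbered libraries were over 0.1 (range -0.073 to 0.566), and all 3 pairs were over 0.1 in 2 of 15 pairs of groups, sgCtl with sgXIST7 in normoxia (0.148 to 0.379) and sgCtl with sgXIST9 in hypoxia (0.197 to 0.566). Within hypoxia 7 of 9 were over 0.1. The main fit did not take the numbers as pairs in any comparison, and a replicate block over all 18 libraries was run as an alternative. By the mean correlation with the libraries of each number in the other groups, 16 of 18 libraries were closest to their own number. With the replicate block, the counts of members called were the same in all 11 comparisons, those of the 2 pairs of groups named included. Among the values tallied above, 3 uncalled ones newly passed the test under it (*SPRED1* in sgXIST7 hypoxia, *SPRED2* with hypoxia in sgXIST7 and sgXIST9), and 1 changed sign (*DUSP5* in sgXIST7 hypoxia, -0.015). In the pathway lists the block took *SHC1* in sgXIST9 hypoxia to 0.978 and *MAP2K2* in sgXIST7 hypoxia to -0.990, both under the fold limit.

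Limits: each sgRNA has 3 libraries per oxygen level, from clones whose number is not given in the sources used here, *DUSP6* in sgXIST7 and *DUSP4* in sgCtl rest on 11 to 27 and 27 to 220 counts per library, and intervals cover the spread of these libraries only.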
